A study of Mus musculus with 16 samples.

Results

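Glucuronidation couples a glucuronic acid residue to bilirubin, steroids, bile acids and drugs so that they can be excreted. UDP-glucose dehydrogenase, encoded by *Ugdh*, oxidises UDP-glucose to UDP-glucuronate, the donor of that residue, and the UDP-glucuronosyltransferases of the endoplasmic reticulum, encoded by *Ugt* genes, transfer it. The liver is a main site of the reaction, and several of these genes are known targets of NRF2, the transcription factor that the sensor protein KEAP1 represses. The genes described here are *Ugdh* and 9 *Ugt* genes, chosen by symbol from the liver RNA-seq table, and make 10 of its 18209 rows with a gene identifier. The transferases were *Ugt1a1*, *Ugt1a6a*, *Ugt1a6b*, *Ugt1a9*, *Ugt2b1*, *Ugt2b5*, *Ugt2b34*, *Ugt2b35* and *Ugt2b36*. The 10 genes were among the 15781 tested, a set limited to genes with 10 or more normalized counts in 4 libraries or more.

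Livers came from 16 mice labelled male and 20 days old, 4 of each genotype, and each carried a floxed *Trsp* gene on both alleles. *Trsp* encodes the tRNA that places selenocysteine in selenoproteins. Trspfl/fl mice are called control below. Trspfl/fl::AlbCre mice, called *Trsp* knockout, also carry Cre driven by the albumin promoter, which deletes *Trsp* in hepatocytes while the other cells of the liver keep the gene. Keap1C226SC613Shomo::Trspfl/fl mice, called *Keap1* mutant, are homozygous for serine in place of a pair of sensor cysteines of KEAP1, in every tissue. Keap1C226SC613Shomo::Trspfl/fl::AlbCre mice, called compound mutant, carry the substitutions and the deletion together. The design asks whether those cysteines are needed for the expression changes that follow loss of selenoproteins. The libraries held 11386669 to 19164133 recovered reads, with a median of 15509625. No row of the table was named *Trsp*, so the deletion was not measured here. Albumin took 4.86% to 10.75% of the reads of a library. The library labelled compound mutant replicate 1 goes against its label, since *Xist* had 28798 reads in it and 22 to 50 elsewhere, while the Y-linked genes had 2 reads in it and 1830 to 3066 elsewhere. It also had the lowest albumin share, so the members' results in comparisons of the compound mutant are repeated without it where a call, a direction or a value changed with it.

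The start of each gene was read from RefSeq windows of GRCm38.p6, from 250 bases before the transcription start to 50 bases from it, which were at hand for 9 of the 10 genes. The authors' annotation is of another release, so these letters describe the loci and not the counting. The window of *Ugdh* at chr5:65435793-65436092, minus strand, is shown because it holds the only match among the 9 windows to the letters TGACNNNGC, the core of the antioxidant response element that NRF2 binds. Capitals mark the matches, one read on the strand of the gene with 123 bases between it and the start, and one on the other strand with 85. These distances hold for the RefSeq start, since the GENCODE M21 annotation used below starts this gene at chr5:65435949, inside the window.

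Ugdh: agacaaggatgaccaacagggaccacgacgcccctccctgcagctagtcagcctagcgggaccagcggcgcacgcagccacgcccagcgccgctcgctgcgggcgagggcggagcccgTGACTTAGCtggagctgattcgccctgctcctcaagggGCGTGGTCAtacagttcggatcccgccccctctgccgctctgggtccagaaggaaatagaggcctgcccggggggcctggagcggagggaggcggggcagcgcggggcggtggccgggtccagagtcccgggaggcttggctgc

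On either strand, 12.4% of 32851 windows held a match to TGACNNNGC, against 1 of 9 windows of these genes. The 5 *Ugt2b* windows shared other letters, an inverted repeat of GTTA and TAAC with 5 bases between them, of the form bound by the liver factor HNF1, which was chosen after the windows were read. It was present in 0.332% of all windows, and these 5 windows held no TGACNNNGC match. The stretches around it are shown with the repeat in capitals, from windows at chr5:86926454-86926753 (*Ugt2b1*, minus strand), chr5:86906888-86907187 (*Ugt2b34*, minus), chr5:87000610-87000909 (*Ugt2b35*, plus), chr5:87092506-87092805 (*Ugt2b36*, minus) and chr5:87140291-87140590 (*Ugt2b5*, minus).

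Ugt2b1: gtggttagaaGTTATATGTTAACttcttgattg
Ugt2b34: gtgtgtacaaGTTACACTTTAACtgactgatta
Ugt2b35: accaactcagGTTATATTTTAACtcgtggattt
Ugt2b36: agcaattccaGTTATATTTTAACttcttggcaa
Ugt2b5: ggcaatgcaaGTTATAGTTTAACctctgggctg

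From the repeat to the RefSeq start there were 48 bases in *Ugt2b5*, 51 in *Ugt2b36*, 57 in *Ugt2b35*, 60 in *Ugt2b34* and 76 in *Ugt2b1*. The windows of *Ugt1a1*, *Ugt1a6a* and *Ugt1a9* held neither set of letters. A match describes the letters of a window and does not show binding.

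The *Ugt1a* genes lie in 1 cluster on chromosome 1, where separate first coding exons are spliced to a common set of last exons. The junctions are shown because they bear on which reads can tell these genes apart. They were taken from the longest coding transcript of each gene in GENCODE M21, with the 30 bases before the junction in lower case and the first 30 bases of the shared exons in capitals.

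Ugt1a1: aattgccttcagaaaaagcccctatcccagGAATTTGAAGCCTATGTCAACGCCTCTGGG
Ugt1a6a: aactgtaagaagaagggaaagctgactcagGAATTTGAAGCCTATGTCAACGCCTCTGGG
Ugt1a6b: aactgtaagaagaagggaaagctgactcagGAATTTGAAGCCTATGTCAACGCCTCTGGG
Ugt1a9: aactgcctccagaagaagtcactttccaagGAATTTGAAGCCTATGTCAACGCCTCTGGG

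The capitals were identical in the 4 genes, and the lower-case stretches were identical in *Ugt1a6a* and *Ugt1a6b*. Shared exons made 57.1% to 59.9% of each transcript, and the transcripts of *Ugt1a6a* and *Ugt1a6b* were 98.9% identical over 2297 aligned bases. Of the stretches of 31 bases in a transcript, 41.5% occurred in no other gene for *Ugt1a1*, 32.2% for *Ugt1a9*, 14.9% for *Ugt1a6b* and 0% for *Ugt1a6a*. An M21 transcript listed under *Ugt1a7c* holds the coding exon of *Ugt1a6a*, so the share of *Ugt1a6a* is set partly by that annotation. In the *Ugt2b* cluster on chromosome 5 this share was 99.2% for *Ugt2b1*, 97.0% for *Ugt2b34*, 95.6% for *Ugt2b35*, 86.5% for *Ugt2b36* and 43.6% for *Ugt2b5*, and it was 93.0% for *Ugdh*. Values of *Ugt1a1*, *Ugt1a6a*, *Ugt1a6b*, *Ugt1a9* and *Ugt2b5* are therefore uncertain where the counting divided shared reads, and family sums are given beside them.

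Deposited values are log2 of the reads of a gene divided by a size factor of the library, plus 4, and per-mouse values below are on that scale. Levels can be compared between genes only per length, here as normalized counts per kilobase of the longest M21 coding transcript. The length of that transcript ran from 1858 bases for *Ugt2b5* to 4312 for *Ugt2b34*, and the ranks below depend on it. Which transcript these livers express was not tested. *Ugt1a1*, the bilirubin transferase, stood highest in control livers at 5125.4 ± 381.5 per kilobase (SD, n = 4), above the range of every other member. *Ugt2b36* followed at 3090.8 ± 578.9 and *Ugt2b5* at 2120.8 ± 434.1, whose ranges overlapped. *Ugt2b34* had 1324.9 ± 111.0 and *Ugt2b1* 1085.8 ± 176.3, which also overlapped. Below them came *Ugt2b35* (612.9 ± 113.8), *Ugt1a6b* (537.2 ± 58.7), *Ugt1a6a* (377.1 ± 26.2) and *Ugdh* (317.9 ± 59.5), and *Ugt1a9* was lowest at 110.6 ± 49.9. *Ugdh* held rank 9 of 10 in control livers and rank 7 in *Trsp* knockout livers, at 1524.7 ± 138.8 per kilobase, where its range overlapped that of *Ugt2b35*. By its mean *Ugt1a1* held rank 1 in each of the 4 genotypes, but its range overlapped that of *Ugt2b36* in *Trsp* knockout livers (3339.2 to 6994.8 against 3053.3 to 4502.3 per kilobase) and in compound mutant livers (1868.1 to 4596.7 against 909.2 to 2042.1). *Ugt1a9* held rank 10 in each.

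**Figure D1:**
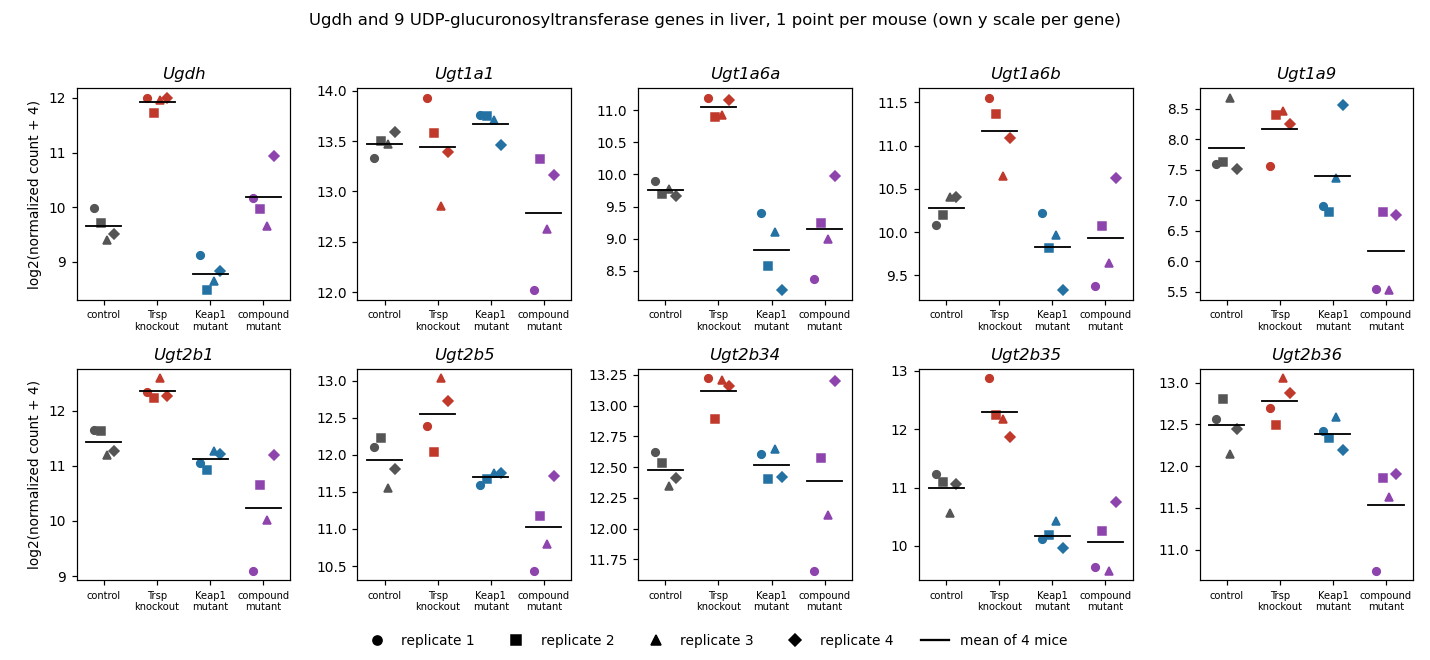
Deposited log2(normalized count + 4) of the 10 genes (y axis, own scale per gene) in the 4 genotypes (x axis), 1 point per mouse with the marker shape giving the replicate number and a line at the mean of 4 mice. The 4 *Trsp* knockout livers sit between 11.72 and 12.00 for *Ugdh*, above the other 12, and compound mutant replicate 1 is the lowest compound mutant liver for 7 of the 10 genes.

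The first comparison, *Trsp* knockout against control, asks what loss of hepatocyte selenoproteins did with KEAP1 intact. *Ugdh* rose 4.82-fold and *Ugt2b35* rose 2.46-fold, and no member fell. *Ugdh* (ENSMUSG00000029201) read 9.99, 9.70, 9.40 and 9.51 in the 4 control livers and 12.00, 11.72, 11.97 and 12.00 in the 4 knockout livers. Each knockout liver was more than 1 log2 unit above the highest control. Its log2 fold change stood at 2.27, with a standard error (SE) of 0.22 and a limma adjusted p of 5.1e-05. The thresholds of the study call a gene when its log2 value moves by more than 1 either way and its adjusted p over the 15781 genes is below 0.01. By that rule 1 of the 10 members was called, against 0.215% of all genes tested. At an adjusted p under 0.05 with no fold limit, 2 of 10 were called, against 0.558%.

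*Ugt2b35* (ENSMUSG00000035811) read 11.24, 11.09, 10.57 and 11.07 in control livers and 12.87, 12.25, 12.17 and 11.86 in knockout livers. The groups did not overlap, and the log2 fold change was 1.30 (SE 0.25, limma adjusted p = 0.024). With only the control and knockout libraries in the fit the adjusted p was 0.067. It was over 0.05 without control replicates 1, 2 or 3 or *Trsp* knockout replicates 1 or 2, and ran from 0.0082 to 0.081 over the 16 fits that left out 1 library. *Ugt1a6a* (ENSMUSG00000054545), whose product conjugates planar phenols, read 9.89, 9.70, 9.78 and 9.67 in control and 11.19, 10.90, 10.92 and 11.16 in knockout livers. Its groups lay far apart too, but the log2 fold change of 1.28 (SE 0.28) had an adjusted p of 0.054 in limma. With only the control and knockout libraries in the fit it was called (adjusted p = 0.00098), and its adjusted p was 0.044, 0.036, 0.020 and 0.014 without *Keap1* mutant replicate 1 or 4 or compound mutant replicate 1 or 4. The sum of *Ugt1a6a* and *Ugt1a6b*, which does not depend on how reads were divided between them, had a log2 fold change of 1.07 (SE 0.25, limma adjusted p = 0.071). *Ugdh*, *Ugt2b35* and *Ugt1a6a* are on the study's own list of genes raised in the knockout, which was picked on these libraries, so their direction here is not independent evidence.

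The remaining transferases did not pass either rule with all 16 libraries. *Ugt1a1* (ENSMUSG00000089960) had the smallest difference, with a log2 fold change of -0.04 (SE 0.25, limma adjusted p = 0.98), and its 4 knockout livers ranged from 12.86 to 13.93 around the control range of 13.33 to 13.59. *Ugt2b1* (ENSMUSG00000035836) had 0.92 (SE 0.30, adjusted p = 0.24), *Ugt1a6b* (ENSMUSG00000090145) 0.89 (0.25, 0.18) and *Ugt2b34* (ENSMUSG00000029260) 0.64 (0.23, 0.28). *Ugt2b1* had an adjusted p of 0.049 without compound mutant replicate 1, where 4 of 10 members were under 0.05, and of 0.031 with only the groups compared. In these 3 genes every knockout liver was above every control liver. *Ugt2b5* (ENSMUSG00000054630) had a log2 fold change of 0.62, *Ugt1a9* (ENSMUSG00000090175) of 0.32 and *Ugt2b36* (ENSMUSG00000070704) of 0.29, with overlapping groups. Over the 10 members the median was 0.77, against -0.01 over all genes tested. The groups did not overlap for 6 of 10 members, against 6.01% of all genes, and 7 of 10 had an unadjusted limma p under 0.05, against 11.0%. The sum of the 9 *Ugt1a* rows changed by 0.24 (SE 0.23, limma adjusted p = 0.73) and that of the 7 *Ugt2b* rows by 0.69 (0.23, 0.26).

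Within the *Ugt1a* reads the shares of *Ugt1a1* and *Ugt1a6a* ranged differently by genotype, but the control and compound mutant ranges overlapped. *Ugt1a1* took 77.9% to 81.2% of them in control livers, 60.1% to 69.7% in *Trsp* knockout livers, 85.7% to 89.0% in *Keap1* mutant livers and 74.1% to 83.3% in compound mutant livers. *Ugt1a6a* took 5.35% to 7.17%, 10.4% to 15.7%, 2.28% to 4.14% and 4.88% to 8.16% in the same order. These shares were not tested, and they rest on the authors' division of reads. *Ugt1a7c*, which shares letters with *Ugt1a6a*, was between 6.93 and 8.21 in knockout livers, far under *Ugt1a6a*, with a log2 fold change of 0.65 (SE 0.25, limma adjusted p = 0.33).

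In bulk tissue, fewer cells of a type and less RNA per cell cannot be told apart. The 8 hepatocyte markers, albumin among them, summed to 1732815 to 2058604 normalized counts in control and 1751519 to 2110487 in knockout livers, and none of the 8 passed a rule. The 5 erythroid markers summed to 802 to 2003 in control and 496 to 772 in knockout livers, with 0 of 5 past a rule. Their part in these results was not tested.

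**Figure D2:**
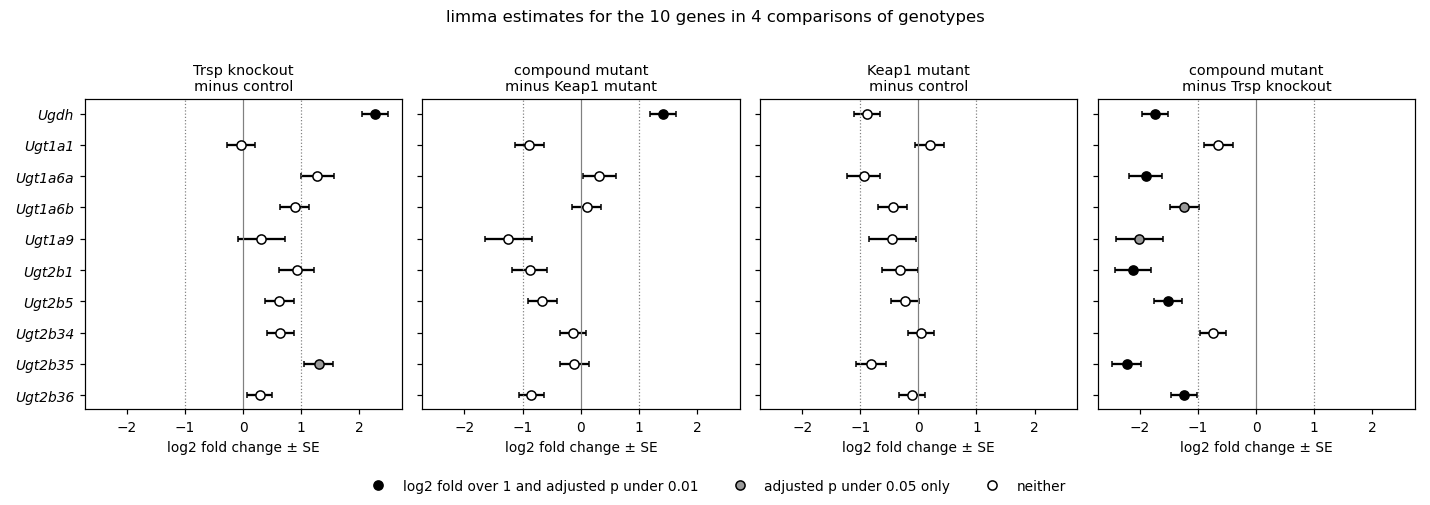
limma log2 fold change (x axis) with its standard error as a bar for each of the 10 genes (y axis), 1 panel per comparison. Black points passed a log2 fold of 1 with an adjusted p under 0.01, grey points only an adjusted p under 0.05, and dotted lines mark a log2 fold of 1. *Ugdh* is black in 3 panels, and the right panel holds 6 black and 2 grey points, each to the left of 0.

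The second comparison, compound mutant against *Keap1* mutant, asks what the same deletion did where KEAP1 lacks the cysteines. *Ugdh* rose 2.66-fold, and none of the 9 transferases passed either rule with all 16 libraries. *Ugdh* read 9.13, 8.48, 8.64 and 8.82 in *Keap1* mutant livers and 10.17, 9.96, 9.65 and 10.93 in compound mutant livers. The groups did not overlap, and the log2 fold change was 1.41 (SE 0.22, limma adjusted p = 0.0063). This made 1 of 10 members by the study's thresholds, against 0.171% of all genes, and 1 of 10 at an adjusted p under 0.05, against 0.798%. The log2 fold change was 1.41 and the adjusted p 0.020 without compound mutant replicate 1. The call was also lost without control replicate 2, *Trsp* knockout replicate 3, *Keap1* mutant replicates 2, 3 or 4, or compound mutant replicate 2, with log2 fold changes from 1.16 to 1.59 over the 16 such fits.

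*Ugt1a6a* had a log2 fold change of 0.32 (SE 0.28, limma adjusted p = 0.68) here, and *Ugt2b35* of -0.11 (0.25, 0.90). These were 0.58 (adjusted p = 0.44) and 0.03 (0.98) without compound mutant replicate 1. *Ugt1a1* and *Ugt2b36* were lower in every compound mutant liver than in every *Keap1* mutant liver, by 0.89 (SE 0.25, adjusted p = 0.12) and 0.85 (0.22, 0.086) on the log2 scale. Without that replicate their log2 fold changes were -0.63 (adjusted p = 0.27) and -0.58 (0.16). With *Ugdh* this made 3 of 10 members whose groups did not overlap, against 7.69% of all genes. Of the 9 transferases 5 had an unadjusted limma p under 0.05, each in the negative direction, against 13.6% of all genes in either. Without compound mutant replicate 4, *Ugt2b1* (-1.20, adjusted p = 0.029), *Ugt2b36* (-0.97, 0.040) and *Ugt2b5* (-0.89, 0.049) were under 0.05. The median of the 10 members was -0.40 with compound mutant replicate 1 and -0.22 without it, and over all genes it was -0.0049 with it. The 8 pericentral markers summed to 33854 to 90509 normalized counts in compound mutant and 92536 to 145312 in *Keap1* mutant livers, with 8 of 8 lower (median -0.83 on the log2 scale). The 8 hepatocyte markers summed to 1002894 to 1912724 and 2007751 to 2364231, with 7 of 8 lower (median -0.42). None of either list passed a rule, and their part in these results was not tested.

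The difference between the effects of the deletion in the *Keap1* mutant and in *Keap1* +/+ livers was tested as an interaction. No member was called by the study's thresholds, against 0.057% of all genes, nor at an adjusted p under 0.05, against 0.0951%. The estimate was negative for 10 of 10 members, from -0.78 for *Ugt2b34* to -1.80 for *Ugt2b1*, with a median of -1.05 against 0.00 over all genes. The knockout libraries on which the study's list was picked enter this estimate. Its direction for *Ugdh*, *Ugt2b35* and *Ugt1a6a* is therefore not independent evidence. For *Ugt2b1* the standard error was 0.43 and the limma adjusted p 0.21, and for *Ugdh* the estimate was -0.86 (SE 0.31, adjusted p = 0.39). An unadjusted p under 0.05 was reached by 10 of 10 members with limma on the log2 values, against 10.8% of all genes, and by 10 of 10 with limma voom on the recovered reads, which also called 0. With all 16 libraries no single member was thus shown to respond differently to the deletion in the *Keap1* genotypes. Without compound mutant replicate 4 *Ugt2b1* (-2.12, adjusted p = 0.020) and *Ugt2b35* (-1.64, 0.044) passed an adjusted p of 0.05, and without replicate 1 no member did, with a median of -0.86. The estimates without replicate 1 ran from -0.54 for *Ugt2b34* to -1.42 for *Ugt2b1*.

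The third comparison, *Keap1* mutant against control, asks what the substitutions did with selenoproteins present. No member passed a rule, against 0.0127% of all genes by the study's thresholds and 0.0887% at an adjusted p under 0.05. limma voom also called 0 members. An unadjusted limma p under 0.05 was reached by 3 of 10 members, *Ugdh*, *Ugt1a6a* and *Ugt2b35*, against 9.07% of all genes, and these 3 also had groups that did not overlap, against 6.23%. *Ugdh* was between 8.48 and 9.13 in mutant and between 9.40 and 9.99 in control livers, a log2 fold change of -0.88 (SE 0.22, limma adjusted p = 0.18, or 0.044 without compound mutant replicate 4). *Ugt1a6a* read 9.40, 8.57, 9.11 and 8.20 in mutant livers, a log2 fold change of -0.94 (SE 0.28, adjusted p = 0.28), and *Ugt2b35* read 10.12, 10.18, 10.43 and 9.97, with -0.82 (0.25, 0.30). *Nqo1*, a reference target of NRF2, fell by 1.82 on the log2 scale (SE 0.21, limma adjusted p = 0.0015) in the same comparison. The other 7 members had log2 fold changes between -0.45 (*Ugt1a9*) and 0.20 (*Ugt1a1*). The 5 B cell markers summed to 108 to 265 normalized counts in *Keap1* mutant and 53.5 to 85.6 in control livers, with 5 of 5 higher (median 1.27 on the log2 scale). The 4 fetal hepatocyte markers, with 4 of 4 higher (median 1.39), summed to 1129 to 1697 and 366 to 2028, which overlapped, and the 5 erythroid markers, with 4 of 5 lower (median -0.83), to 459 to 756 and 802 to 2003. None of these markers passed a rule, and their part in these results was not tested.

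The fourth comparison, compound mutant against *Trsp* knockout, asks what the substitutions did in livers without hepatocyte selenoproteins. *Ugdh* and 5 transferases fell by the study's thresholds, from 2.36-fold for *Ugt2b36* to 4.68-fold for *Ugt2b35*, and *Ugt1a6b* and *Ugt1a9* were added at an adjusted p under 0.05. The 6 of 10 members stand against 0.57% of all genes called in either direction and 0.456% called lower, and the 8 of 10 against 2.07% and 1.29%. The baseline here is the *Trsp* knockout libraries on which the study's list with *Ugdh*, *Ugt2b35* and *Ugt1a6a* was picked. The fall of these genes is therefore not independent evidence, and the members were chosen with earlier results of these data known. The median log2 fold change of the members was -1.63, against 0.01 over all genes. The groups did not overlap for 8 of 10 members, the exceptions being *Ugt1a1* and *Ugt2b34*, against 8.61% of all genes. An unadjusted limma p under 0.05 was reached by 10 of 10, against 17.6%.

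*Ugdh* was between 9.65 and 10.93 in compound mutant livers and between 11.72 and 12.00 in knockout livers, and fell by 1.74 on the log2 scale (SE 0.22, limma adjusted p = 0.00035). Its compound mutant range overlapped the control range of 9.40 to 9.99. *Ugt1a6a* read 8.37, 9.24, 8.99 and 9.98 in compound mutant livers, under every knockout liver, and fell by 1.90 (SE 0.28, adjusted p = 0.0015). *Ugt1a6b* fell by 1.23 (SE 0.25, adjusted p = 0.017), *Ugt1a9* by 2.01 (0.41, 0.016), and the sum of *Ugt1a6a* and *Ugt1a6b* by 1.52 (0.25, 0.0038). *Ugt1a1* had a log2 fold change of -0.65 (SE 0.25, adjusted p = 0.19), with compound mutant livers at 12.02, 13.32, 12.63 and 13.16 and knockout livers at 13.93, 13.58, 12.86 and 13.39. The sum of the 9 *Ugt1a* rows, most of it *Ugt1a1*, had -0.90 (0.23, 0.054).

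Among the *Ugt2b* genes, whose products conjugate steroids and bile acids among others, *Ugt2b35* fell by 2.23 (SE 0.25, limma adjusted p = 0.00011), with compound mutant livers at 9.64, 10.26, 9.58 and 10.76. *Ugt2b1* read 12.35, 12.23, 12.59 and 12.27 in knockout livers and 9.10, 10.65, 10.02 and 11.20 in compound mutant livers, and fell by 2.12 (SE 0.30, adjusted p = 0.0012). The spread of *Ugt2b1* was wider in the compound mutant, with an SD of 0.90 against 0.16. *Ugt2b5* read 12.39, 12.04, 13.03 and 12.72 in knockout and 10.44, 11.17, 10.80 and 11.72 in compound mutant livers, and fell by 1.52 (0.25, 0.0039). *Ugt2b36* read 12.70, 12.49, 13.05 and 12.87 in knockout and 10.75, 11.86, 11.63 and 11.91 in compound mutant livers, and fell by 1.24 (0.22, 0.0068). *Ugt2b34* was the least changed of the 5, with a log2 fold change of -0.74 (SE 0.23, adjusted p = 0.11) and compound mutant replicate 4 inside the knockout range. The sum of the 7 *Ugt2b* rows fell by 1.35 (SE 0.23, adjusted p = 0.0059). *Ugt2b34* took 25.0% to 28.1% of the *Ugt2b* reads in knockout livers and 39.0% to 44.8% in compound mutant livers, a share that was not tested.

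**Figure D3:**
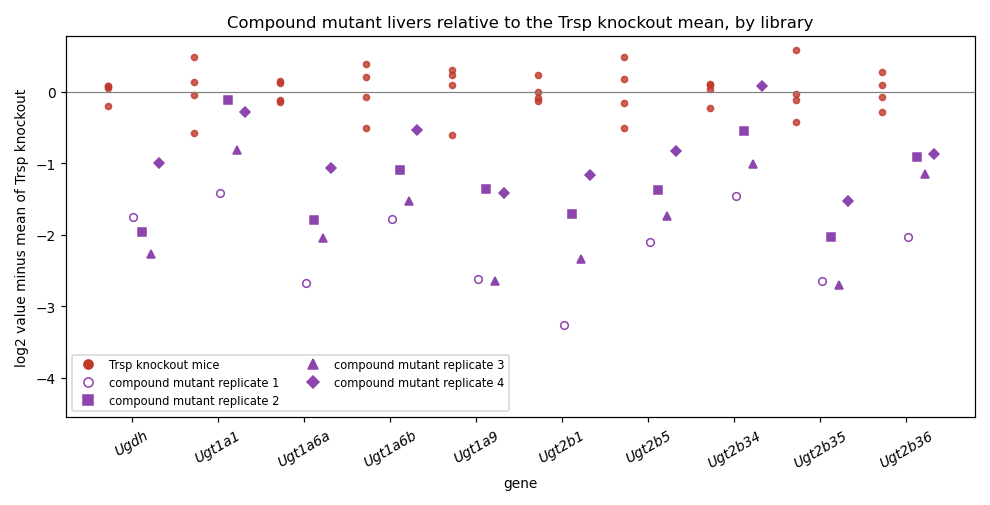
Log2 value of each *Trsp* knockout liver (red) and each compound mutant liver (purple, marker shape by replicate, replicate 1 open) minus the mean of the 4 knockout livers (y axis), for each gene (x axis). Replicate 1 is the lowest compound mutant liver for 7 of 10 genes and replicate 4 the highest for 8 of 10.

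Without compound mutant replicate 1, 4 members were called lower by the study's thresholds and 6 at an adjusted p under 0.05, with a median of -1.48. *Ugdh*, *Ugt1a6a*, *Ugt2b1* and *Ugt2b35* were called in 16 of 16 fits that left out 1 library, *Ugt2b5* in 11 and *Ugt2b36* in 6. Without compound mutant replicate 1 *Ugt2b5* had an adjusted p of 0.013, and *Ugt2b36* a log2 fold change of -0.98 (adjusted p = 0.0071). *Ugt1a6b* (-1.05) and *Ugt1a9* (-1.81) both had an adjusted p of 0.067, and *Ugt1a1* had a log2 fold change of -0.40 (0.44). *Ugt2b34* was at -0.50 (0.28), *Ugt2b1* at -1.74 (0.00044), *Ugt2b35* at -2.09 (0.00056), *Ugt1a6a* at -1.64 (0.0039) and *Ugdh* at -1.74 (0.0017). The sum of *Ugt1a6a* and *Ugt1a6b* was then -1.31 (0.012) and that of the *Ugt2b* rows -1.11 (0.010 as rounded, above the threshold), neither of them called. *Ugt1a6b* was also over 0.05 without *Trsp* knockout replicates 1 or 2 or compound mutant replicate 3, and *Ugt1a9* without *Trsp* knockout replicate 3 or compound mutant replicate 3. The count depended on replicate 4 as well, since 9 members were called without that library, all but *Ugt1a1*. The call of *Ugt2b5* was lost without *Trsp* knockout replicates 3 or 4 or compound mutant replicates 1, 2 or 3. That of *Ugt2b36* held without control replicates 2 or 3, *Trsp* knockout replicate 2, *Keap1* mutant replicate 4 or compound mutant replicates 2 or 4, and was lost in the other 10 fits. It was lost as well with quantile normalization (adjusted p = 0.011), with eBayes without trend (0.012) and with limma voom, which called 5 members. With only the 8 libraries of this comparison in the fit, 1 member, *Ugt2b35*, was called (adjusted p = 0.0091), while *Ugdh* had an adjusted p of 0.012.

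Markers of cell state moved with this comparison. The 8 hepatocyte markers summed to 1002894, 1740220, 1369716 and 1912724 normalized counts in compound mutant replicates 1 to 4, against 1751519 to 2110487 in knockout livers. Of these markers 6 of 8 were lower (median -0.30 on the log2 scale), and *Tdo2* was past an adjusted p of 0.05. The 8 pericentral markers summed to 33854 to 90509 in compound mutant and 74464 to 173574 in knockout livers, 6 of 8 being lower, with *Cyp1a2* and *Oat* past an adjusted p of 0.05. The 4 fetal hepatocyte markers summed to 789 to 2712 in compound mutant and 584 to 719 in knockout livers, with *Igf2* higher at an adjusted p under 0.05. The 5 erythroid markers summed to 3124 in compound mutant replicate 1, against 496 to 772 in knockout livers. In compound mutant replicates 2 to 4 they summed to 704, 660 and 521, inside the knockout range. The 5 B cell markers summed to 90 to 188 in compound mutant against 73.4 to 83.6 in knockout livers. No marker of these lists was at 0 in a whole genotype. Their part in the fall of the members was not tested.

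The rest of the pathway was described with 46 genes, of which 41 were tested. In *Trsp* knockout against control livers, 1 of the 41 was called by the study's thresholds, against 0.215% of all genes tested. At an adjusted p under 0.05 there were 4 of 41, against 0.558%. Each was higher, and the median log2 fold change over the 41 was 0.25. *Abcc4*, an exporter of conjugates, rose from 140.5 ± 48.6 to 768.8 ± 245.5 normalized counts (SD, n = 4 per genotype), or by 2.42 on the log2 scale (SE 0.23, limma adjusted p = 5.1e-05). *Abcc3*, which exports glucuronides toward the blood, had 1.92 (0.37, 0.022), *Entpd5*, which clears the UDP that the transferases release, 1.11 (0.21, 0.019), and the exporter *Abcg2* 0.76 (0.12, 0.0055). *Abcc2*, the exporter toward bile, had 0.56 (SE 0.33, adjusted p = 0.56). *Abcc3*, *Abcc4* and *Entpd5* are on the study's list of raised genes as well.

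The supply of substrate moved less than *Ugdh* in the same comparison. *Ugp2*, which makes the UDP-glucose that *Ugdh* uses, had a log2 fold change of 0.35 (SE 0.23, limma adjusted p = 0.60). *Slc35d1*, which carries UDP-glucuronate into the endoplasmic reticulum, had 0.28 (0.16, 0.55), and *Gusb*, the lysosomal glucuronidase that removes the residue, had 0.25 (0.16, 0.59). None of the 9 transcription factors known to act on *Ugt* genes passed a rule, their log2 fold changes lying between -0.50 and 0.25.

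In the compound mutant against the *Trsp* knockout, 5 of the 41 genes were called lower, against 0.456% of all genes, and 0 higher. At an adjusted p under 0.05, 11 of the 41 were lower, against 1.29%, and the median was -0.62. Of the 5, 4 were called lower without compound mutant replicate 1, *Abcc3* having an adjusted p of 0.014. *Abcc3* fell by 2.31 (SE 0.37, limma adjusted p = 0.0032), *Abcc4* by 2.01 (0.23, 0.00015), *Ugt2a3*, another transferase, by 1.86 (0.29, 0.0030), *Entpd5* 2.83-fold (log2 SE 0.21, adjusted p = 0.00084) and *Abcg2* by 1.19 (0.12, 3.8e-05). *Ugp2* fell by 1.13 (0.23, 0.018), and *Akr1a1* and *Rgn*, enzymes on the route from glucuronate to ascorbate, by 0.44 (0.10, 0.038) and 1.05 (0.24, 0.036). The other 3 were the transferases *Ugt1a5*, *Ugt2b38* and *Ugt3a1*, with log2 fold changes of -1.92, -1.26 and -1.62. With compound mutant replicate 1 left out, *Ugp2* (adjusted p = 0.052), *Akr1a1* (0.11), *Rgn* (0.099), *Ugt2b38* (0.096) and *Ugt3a1* (0.078) no longer passed 0.05. *Gusb* had -0.22 (SE 0.16, adjusted p = 0.50). *Abcc3*, *Abcc4* and *Entpd5* were listed by the study as raised in these knockout livers, so their fall is not independent evidence.

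**Figure D4:**
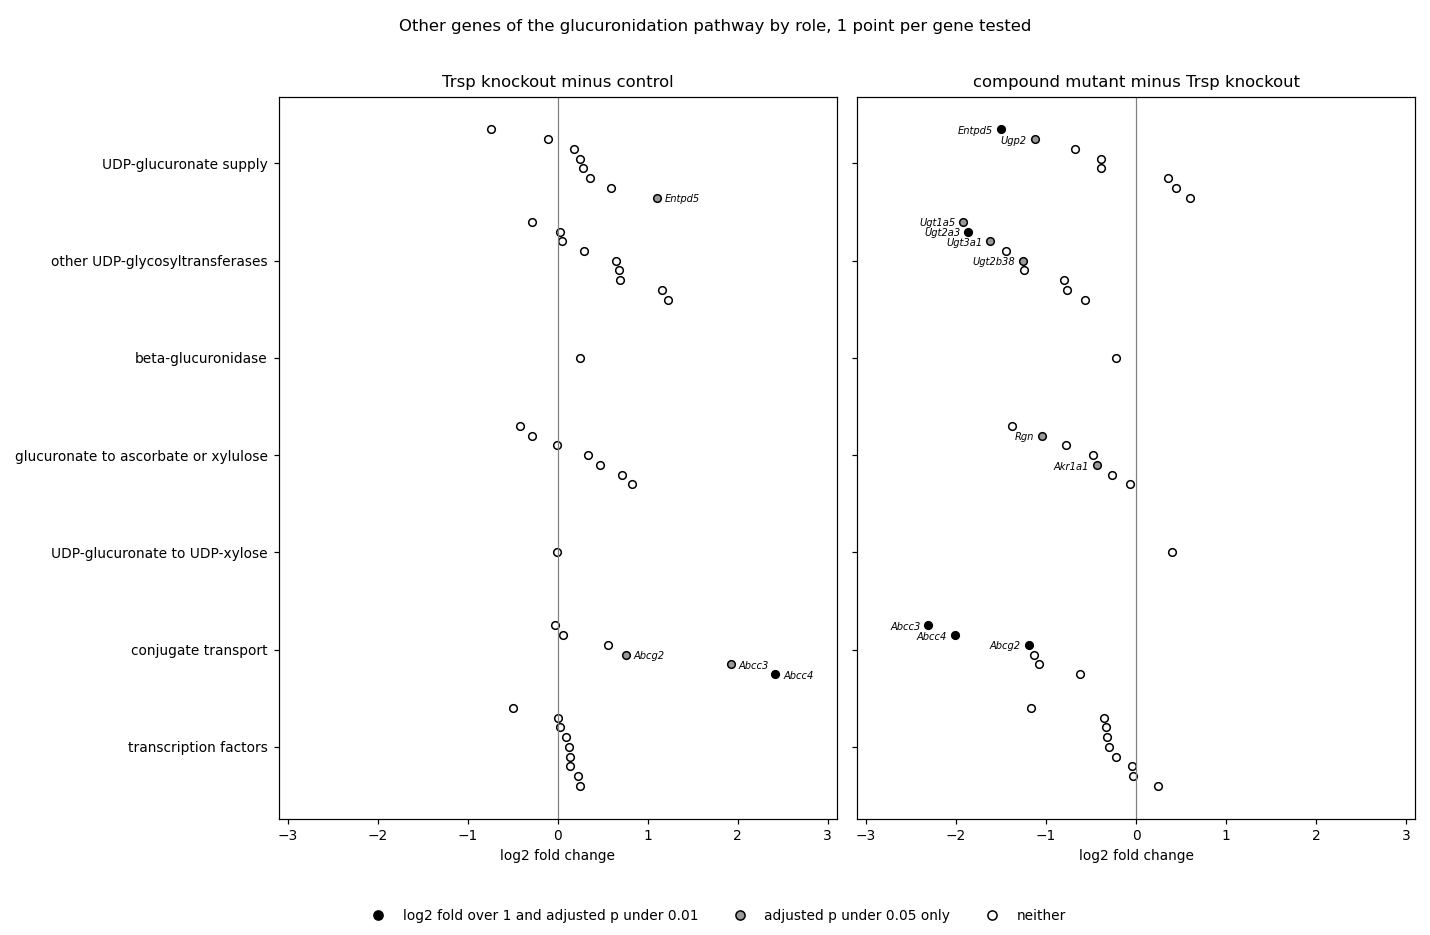
limma log2 fold change (x axis) of the 41 other pathway genes tested, 1 point per gene, grouped by role (y axis), for *Trsp* knockout minus control (left) and compound mutant minus *Trsp* knockout (right). Named points passed an adjusted p of 0.05 and black points the study's thresholds, 1 on the left and 5 on the right.

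In the compound mutant against the *Keap1* mutant 0 of the 41 were called, with limma or limma voom. An unadjusted limma p under 0.05 was reached by 13 of the 41, against 13.6% of all genes. *Gulo*, the last enzyme of ascorbate synthesis, fell by 0.88 (SE 0.19, limma adjusted p = 0.047), and *Ahr*, a receptor known to act on *Ugt1a6* genes, fell by 0.59 (0.13, 0.049). Neither passed 0.05 with limma voom (adjusted p = 0.058 and 0.064) or without compound mutant replicate 1 (0.11 and 0.13). In the *Keap1* mutant against control 0 of 41 passed a rule. An unadjusted p under 0.05 was reached by 9 of 41 with limma, against 9.07% of all genes, and by 8 of 41 with limma voom. As an interaction 0 of 41 passed a rule. Here 15 of 41 had an unadjusted p under 0.05 with limma, against 10.8% of all genes, and 14 of 41 with limma voom.

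The genes whose levels ran most like *Ugdh* over the 16 libraries, outside the members, were *Aox1* (Pearson r = 0.973), *Creg1* (0.966), *Srxn1* (0.959), *Slc39a5* (0.954) and *Ephx1* (0.951). These correlations describe libraries that fall into 4 genotypes, and the genes are also on the study's list of raised genes. Because the genes were picked for running like *Ugdh* over these same libraries, changes like those of *Ugdh* follow from the choice. Their fold changes and adjusted p below are therefore description and not independent evidence. In the *Trsp* knockout against control *Aox1* rose by 2.44 (limma adjusted p = 0.00014), *Slc39a5* by 2.46 (0.0015), *Ephx1*, the microsomal epoxide hydrolase, by 2.20 (0.00045), *Srxn1* by 1.42 (3e-05) and *Creg1* by 1.17 (5e-04) on the log2 scale. In the compound mutant against the *Keap1* mutant their log2 fold changes were 1.73, 1.55, 1.41, 0.74 and 0.80, with adjusted p between 0.0056 and 0.049. Of the reference targets of NRF2, *Nqo1* rose by 2.27 in the *Trsp* knockout (limma adjusted p = 3e-05) and fell by 2.96 in the compound mutant against it (4.4e-07). *Gclc*, a subunit of the enzyme that starts glutathione synthesis, had 1.13 (0.062) and fell by 1.21 (0.021) in the same comparisons.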

How the data were processed

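Livers of 16 mice, 4 of each genotype, were analysed. The authors removed ribosomal RNA from total RNA, made directional libraries, sequenced paired ends on a DNBSEQ-G400RS and estimated reads with Salmon on GENCODE mouse transcripts of release 30, before the iDEP platform. Their methods name TPM, but the deposited values are log2 of reads over a size factor plus 4, so the log2 unit was used as it stands; reversing it gave whole reads (tolerance 0.1) for the low values. Depth was 11386669 to 19164133 reads per library, and the least covered member, *Ugt1a9*, had 46 to 433 reads. The 369 rows without an identifier (0.274% to 0.627% of reads) were left out. Every per-sample column was used and no pair of libraries was identical. Nothing beyond the genotype and number tells how mice relate, so p-values measure the spread between these mice.

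limma 3.58.1 (R 4.3.3; lmFit, contrasts, eBayes with trend) was run on the 15781 genes that had 10 or more normalized counts in 4 libraries or more, with 1 mean per genotype, all 16 libraries and Benjamini-Hochberg adjustment. The fit was tried on simulated reads for the *Trsp* knockout against control only, with equal spread in every group and no outlying library. That run cannot show how the fit handles the wider spread of the compound mutant group. Family sums were added as rows on the normalized count scale. Fold changes on this scale understate the change of weakly expressed genes. Transcripts and promoters were read with Python 3.11.15 and Biopython 1.88. The named genes are the 10 members, other pathway genes that passed a rule, *Ugp2*, *Slc35d1*, *Gusb*, *Abcc2*, *Abcc3*, 3 NRF2 reference genes and the 5 genes most like *Ugdh*. The members and lists were chosen with earlier results of these data known. Alternatives were other constants (0.1, 0.5, 1), filters, normalizations, variance models, thresholds, the replicate number as a block, the compared groups alone and each library left out.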

Additional observations from a re-analysis of the deposited data

Results flagged for a closer look

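Among 52 groups of 4 livers examined for a value far from the other 3, 3 held one, where chance alone gives about 2.6. *Ugdh* in *Trsp* knockout replicate 2 was 11.72 on the log2 scale, under the 11.97 to 12.00 of the other knockout livers, and without it the log2 fold change against control was 2.34 (limma adjusted p = 0.00018) in place of 2.27. *Ugt1a1* in *Keap1* mutant replicate 4 was 13.46, under the 13.71 to 13.76 of the other *Keap1* mutant livers, and without it the compound mutant differed by -0.96 (adjusted p = 0.10) in place of -0.89. *Ugt1a9* in control replicate 3 was 8.68, above the 7.52 to 7.63 of the other control livers, and without it the log2 fold change in the *Trsp* knockout was 0.59 (adjusted p = 0.62) in place of 0.32.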

How the results depend on the processing

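No result of the members or of the family sums changed direction while past the threshold under any alternative run. Of the call counts and family sums under an alternative, 657 stayed on their side of the threshold or within 1.5 times of their count. Of the rest, 18 counts moved further, 19 values lost the call and 1 gained it. Among the values of single members, 1347 stayed on their side of the threshold, 34 lost the call and 9 gained it. The number of members called in the *Trsp* knockout was 2 at an adjusted p under 0.05 (fold limit kept) and 2 with only the groups compared, and 1 to 2 with a library left out (2 without compound mutant replicate 4). In the compound mutant against the *Keap1* mutant it was 0 under eBayes without trend, 0 with only the groups compared, and 0 to 1 with a library left out. Against the *Trsp* knockout it was 1 with only the groups compared, and 4 to 9 with a library left out. Of the other pathway genes, 3 were called in the *Trsp* knockout at an adjusted p under 0.05. In the compound mutant against it 10 were called at that threshold and 3 with only the groups compared, and 3 to 7 with a library left out (3 without *Trsp* knockout replicate 1 or compound mutant replicate 3).

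The sum of *Ugt1a6a* and *Ugt1a6b* in the *Trsp* knockout was 1.07 with only the groups compared, then called (adjusted p = 0.0075). In the compound mutant against it the sum was -1.52 with only the groups compared (adjusted p = 0.037) and -1.77 to -1.31 with a library left out, and its call was lost without *Trsp* knockout replicates 1, 2 or 4 or compound mutant replicates 1, 2 or 3. The *Ugt2b* sum was -0.99 with quantile normalization, -1.35 with only the groups compared (adjusted p = 0.078) and -1.58 to -1.11 with a library left out, and its call was lost without *Trsp* knockout replicates 1, 3 or 4, *Keap1* mutant replicates 1 or 2, or compound mutant replicates 1, 2 or 3. The causes were not tested.

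Deviations from the genotype means of same-numbered libraries correlated between -0.315 and 0.31 (median -0.0365, 24 pairs). Between libraries of other numbers they correlated between -0.335 and 0.327 (median 0.009, 72 pairs). Same-numbered libraries were thus no more alike in expression, which cannot show whether the mice were paired. With the replicate block 4 members were called in the compound mutant against the *Trsp* knockout in place of 6, and there the *Ugt1a6a* and *Ugt1a6b* sum was -1.52 (adjusted p = 0.016) and the *Ugt2b* sum -1.35 (adjusted p = 0.020).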
